A study of Mus musculus with 2 samples.

Results

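Leukocyte adhesion molecules of endothelium are the surface proteins by which the vessel lining captures and holds white blood cells, and the 8 genes Vcam1, Icam1, Sele, Selp, Madcam1, Alcam, Cd44 and Cd47 are described here. They were chosen by name: every probe set whose gene symbol in the platform annotation was exactly 1 of the 8 was taken, which gave 23 of 45101 probe sets, standing for 8 of 18193 genes. The values are from Affymetrix mouse arrays of primary endothelial cells cultured from C57/BL6 embryos at stage E10.5. All cells carried floxed Snail1 alleles (Snail1f/f) and were infected with an adenovirus, so that WT cells, given adeno-βGal, were floxed and infected too, and Snail1 KO cells were given adeno-Cre. The culture medium held 20% fetal bovine serum and an endothelial growth factor cocktail, and the cells recovered for several days before RNA was taken. Each group is 1 array, no cells without the floxed allele received Cre, and the labels do not say how many embryos or cultures an array stands for. Snail1 deletion, Cre itself, the virus and the culture cannot be told apart in these arrays. Differences are given by size, and none was tested.

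Adhesion of leukocytes proceeds in steps. The selectins, E-selectin (Sele) and P-selectin (Selp), bind sugar chains on passing leukocytes and let them roll, and the immunoglobulin-type proteins VCAM-1 (Vcam1), ICAM-1 (Icam1) and MAdCAM-1 (Madcam1) bind leukocyte integrins and arrest them. ALCAM (Alcam) binds CD6 on T cells and itself on neighbouring cells, CD44 (Cd44) binds hyaluronan, and CD47 (Cd47) binds SIRPα on myeloid cells and thrombospondins. Endothelium makes E-selectin, VCAM-1 and ICAM-1 in response to inflammatory cytokines, largely through the transcription factor NF-kB, while P-selectin is also stored ready-made in Weibel-Palade bodies, the secretory granules of endothelium.

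Snail1 and NF-kB act by binding short DNA motifs, so the sequence before the transcription start of each gene was examined. RefSeq promoters of assembly GRCm38.p6 were matched for 7 of the 8 genes, and Vcam1 was not searched. The 250 bases before the start were searched on both strands for the E-box CACCTG, which Snail1 is known to bind, for a shortened NF-kB-like motif GGNNNTTCC, whose reverse complement GGAANNNCC also holds the GGAA core of ETS sites, for an interferon-response-like motif (GAAA, any 2 bases and GAAA) and for TATAAA. The windows of both selectins, of Icam1 and of Cd44, the member with the largest difference in its brightest probe set, are shown, each 5′ to 3′ on the strand of the gene, with every motif match in capitals.

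Icam1, chr9:21015690-21015939, plus strand: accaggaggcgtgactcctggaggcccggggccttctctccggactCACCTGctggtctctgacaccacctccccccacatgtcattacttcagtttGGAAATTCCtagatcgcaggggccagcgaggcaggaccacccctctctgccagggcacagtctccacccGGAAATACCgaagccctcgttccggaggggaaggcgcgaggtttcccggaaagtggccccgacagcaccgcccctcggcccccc
Sele, chr1:164047984-164048233, plus strand: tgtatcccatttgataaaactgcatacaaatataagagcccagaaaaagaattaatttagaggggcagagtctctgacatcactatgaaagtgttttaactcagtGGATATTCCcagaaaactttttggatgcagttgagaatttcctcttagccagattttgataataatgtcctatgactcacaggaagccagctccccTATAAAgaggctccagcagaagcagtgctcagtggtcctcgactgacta
Selp, chr1:164115014-164115263, plus strand: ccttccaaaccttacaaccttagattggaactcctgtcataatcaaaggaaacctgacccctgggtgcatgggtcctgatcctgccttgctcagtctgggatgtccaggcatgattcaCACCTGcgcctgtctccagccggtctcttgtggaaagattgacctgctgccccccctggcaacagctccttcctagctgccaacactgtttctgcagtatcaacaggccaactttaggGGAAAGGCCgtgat
Cd44, chr2:102901666-102901915, minus strand: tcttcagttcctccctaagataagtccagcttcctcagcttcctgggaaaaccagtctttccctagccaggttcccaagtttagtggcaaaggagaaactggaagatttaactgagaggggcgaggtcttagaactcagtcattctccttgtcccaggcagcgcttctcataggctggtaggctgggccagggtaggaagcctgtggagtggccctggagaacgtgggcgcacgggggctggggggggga

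The Icam1 window holds CACCTG 204 to 199 bases before the start, GGAAATTCC, which matches the NF-kB-like motif on both strands, 153 to 145 bases before it, and GGAAATACC at 84 to 76. In Sele the NF-kB-like motif is matched by GGATATTCC, 145 to 137 bases before the start, and TATAAA lies at 49 to 44. In Selp the E-box lies 132 to 127 bases before the start, and GGAAAGGCC at 14 to 6. None of the 4 motifs was found in the Cd44 window, which says only that these letters are not in these 250 bases. Over the 7 genes, the E-box was present in 3 (Alcam, Icam1 and Selp), the NF-kB-like motif in 4 (Icam1, Madcam1, Sele and Selp), TATAAA in 1 and the interferon-response-like motif in 0. Of 32851 promoter windows of the same length, 17.2% held the E-box, 15.7% the NF-kB-like motif, 12.4% TATAAA and 2.98% the interferon-response-like motif. A match describes the sequence and is not a measured binding site.

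The deposited values are log2 expression values made with RMA, a method that corrects background, normalizes the arrays to 1 distribution and summarises each probe set. A probe set, or a gene through its brightest probe set, was analysed where its mean over both arrays was above the 40th percentile of probe sets, a log2 value of 3.97. That filter is no test of detection. Median log2 values were 4.66 for WT and 4.70 for Snail1 KO, and Snai1, the gene to be deleted, was at 5.33 and 3.59 in its single probe set. The 4 control probe sets for Cre ranged from 2.69 to 3.83 in WT and from 11.87 to 12.86 in Snail1 KO. The endothelial markers Cdh5 (VE-cadherin) and Pecam1 were bright on both arrays, at 11.34 and 11.46 and at 10.18 and 10.22, while Vwf, von Willebrand factor, was at 3.96 and 3.86, below the filter level. Values of different probe sets are not set against each other as levels, because probes differ in brightness.

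Most adhesion genes had lower values in Snail1 KO cells. In the brightest probe set the size ranged from 4.70-fold for Cd44 to 1.05-fold for Cd47, whose probe sets differed in direction. Of the 8 genes, 7 passed the filter. In the brightest probe set all 7 were lower, against 50.9% of the 12874 genes analysed, Cd47 with a difference of only -0.07, and 2 of them, Cd44 and Sele, were lower by at least 2-fold, against 1.84% of all genes. Sele passed the filter only through its WT value, so a low Snail1 KO value was built into its place in the count, and 1 gene, Cd44, was 2-fold lower with both arrays above the filter level. The members were also chosen with earlier results of these data known. For both reasons the counts describe the members and are not read as evidence of a shared change. None was higher by 2-fold, against 0.971% of all genes. The median log2 difference of the 7 was -0.80, and that of their 20 analysed probe sets -0.63, beside -0.01 over all analysed genes. These medians carry the same limits as the counts. Counted by probe set, 17 of the 20 analysed were lower (47.2% of the 23310 probe sets analysed), 7 of them by at least 2-fold (1.52%), and 3 were higher, none of them by 2-fold (1.57%). Of those 7, 2 (1 each of Sele and Vcam1) were under the filter level in Snail1 KO, which left 5. The 3 probe sets that did not pass are 1 of Madcam1 and 2 of Cd44. Probe sets of 1 gene measure the same RNA and are not replicates.

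**Figure D1:**
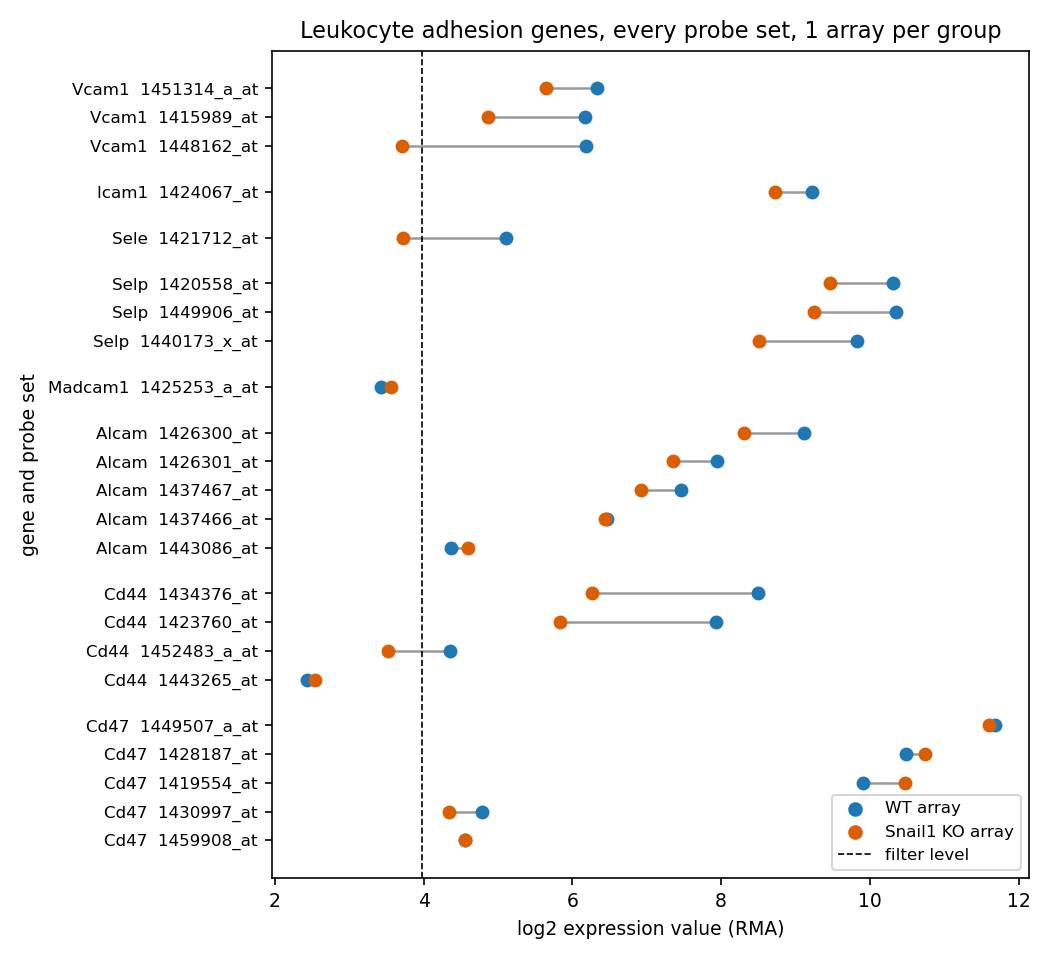
Log2 expression values (horizontal axis) of all 23 probe sets of the 8 genes (vertical axis), with 1 point for the WT array and 1 for the Snail1 KO array joined by a line, and the filter level of 3.97 dashed. The Snail1 KO points of Vcam1, Icam1, Sele, Selp and the brighter Cd44 probe sets lie to the left of the WT points, while those of Cd47 lie on both sides.

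Of the selectins, Sele was measured by 1 probe set, 1421712_at, at a log2 value of 5.10 on the WT array and 3.73 on the Snail1 KO array. The Snail1 KO value was 2.59-fold lower and below the filter level, so background may make up part of it and the size of the difference is uncertain. Selp was bright, with 3 probe sets at 10.32, 10.36 and 9.83 on the WT array, which are above 95.1%, 95.2% and 93.0% of all probe sets. On the Snail1 KO array the same probe sets were at 9.46, 9.25 and 8.51. Selp was thus 1.81-fold lower in its brightest probe set (1420558_at), 2.15-fold lower in 1449906_at and 2.50-fold lower in 1440173_x_at, whose name marks probes that may bind other transcripts. All 3 gave the same direction, and the first lies just inside 2-fold.

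Among the integrin ligands, Vcam1 gave the sizes that agreed least. Its 3 probe sets started from nearly the same WT values, 6.33 for 1451314_a_at, 6.17 for 1415989_at and 6.18 for 1448162_at. On the Snail1 KO array they were at 5.65, 4.86 and 3.70, the last below the filter level, so that its size is uncertain. Vcam1 was therefore lower by 1.60-fold, 2.49-fold or 5.55-fold depending on the probe set, and the direction was the same in all 3. Only 21 of the 12874 genes had a brightest probe set at least as low as the lowest of these, whereas 562, Vcam1 included, were at least as low as the brightest. The range of 1.79 log2 units between Vcam1 probe sets was wider than that of 99.4% of the 2658 genes with 3 or more analysed probe sets, whose median range was 0.49. The positions of the probes on the Vcam1 transcripts were not used here, and the part of transcript forms in this disagreement was not tested.

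Icam1 was measured by 1 probe set, 1424067_at, at 9.22 on the WT array and 8.73 on the Snail1 KO array. It was 1.40-fold lower, a difference of -0.49 that lies at the 8.89th percentile of all analysed genes. That is smaller than the differences of Sele, Selp and Vcam1 in their brightest probe sets. Icam4 and Icam5, the family members beside Icam1 on chromosome 9, were at 3.49 and 3.20 and at 3.29 and 3.36, under the filter level in both groups. They are no members of the set and were picked with their values known. Madcam1, the ligand of the gut-homing integrin α4β7, was at 3.42 and 3.56 in its single probe set, under the filter level in both groups, and no fold is read from it.

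**Figure D2:**
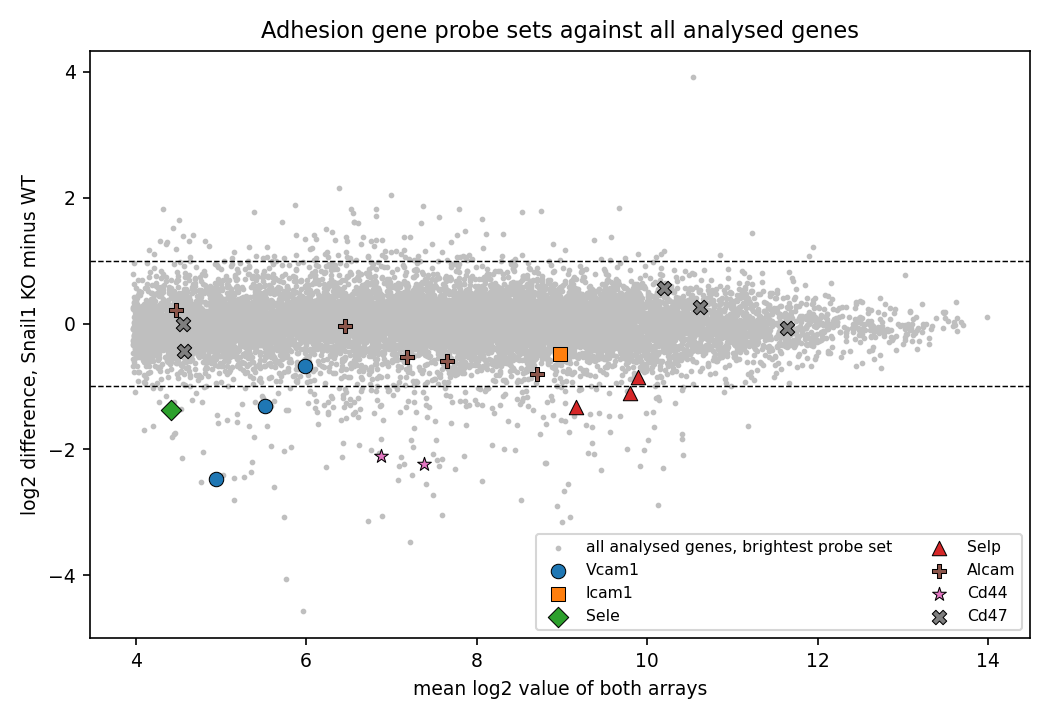
Log2 difference, Snail1 KO minus WT (vertical axis), against the mean log2 value of both arrays (horizontal axis). Grey points are the brightest probe sets of the 12874 analysed genes, symbols are the 20 analysed probe sets of the adhesion genes, and dashed lines mark 2-fold. The Cd44 points and the lowest Vcam1 point lie under -2, and the Cd47 points lie between the dashed lines.

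Cd44 had the largest difference that more than 1 probe set shared. Its brightest probe set, 1434376_at, was at 8.50 on the WT array and 6.27 on the Snail1 KO array, and 1423760_at was at 7.94 and 5.83. These are 4.70-fold and 4.31-fold lower, which leaves 21.3% and 23.2% of the WT signal, and both Snail1 KO values stayed above the filter level. A further probe set, 1452483_a_at, did not pass the filter, with 4.35 and 3.53, and 1443265_at was dim on both arrays, at 2.43 and 2.54. In the brightest probe set 35 of the 12874 genes, Cd44 included, were at least as low. Cd44 has many splice forms, and which of them each probe set reads is not given in the sources used here.

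Alcam was lower in its 3 brightest probe sets and level or higher in its dimmer ones. It was at 9.11 and 8.31 in 1426300_at, at 7.95 and 7.36 in 1426301_at and at 7.46 and 6.92 in 1437467_at, which are 1.74-fold, 1.51-fold and 1.45-fold lower. The remaining probe sets were at 6.47 and 6.43 and at 4.37 and 4.59. None of the 5 reached 2-fold.

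Cd47, which marks cells as self to phagocytes, did not share one direction over its probe sets. The brightest, 1449507_a_at, was at 11.68 on the WT array and 11.61 on the Snail1 KO array, above 98.6% of all probe sets on both. The next, 1428187_at and 1419554_at, were at 10.49 and 10.75 and at 9.91 and 10.48, which are 1.19-fold and 1.48-fold higher. Both dim probe sets were level or lower, with 4.78 and 4.34 in 1430997_at and 4.56 and 4.56 in 1459908_at. All 5 lay within 2-fold.

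Agreement between probe sets separates the members into groups. Every analysed probe set was lower for 5 of the 7 genes (Vcam1, Icam1, Sele, Selp and Cd44), against 40.3% of all genes, although Icam1 and Sele have 1 probe set each. For 4 genes (Vcam1, Sele, Selp and Cd44) at least 1 analysed probe set was lower by 2-fold, against 2.14% of all genes, and for Sele and Cd44 every one was, against 1.43%, Sele with the limit given above. Alcam and Cd47 each had probe sets of both signs, and their ranges of 1.02 and 1.01 log2 units were wider than those of 91.4% and 91.0% of the genes with 3 or more probe sets. The Selp range of 0.47 was close to the median. Ranges grow with the number of probe sets, which is 3 for Vcam1 and Selp and 5 for Alcam and Cd47.

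**Figure D3:**
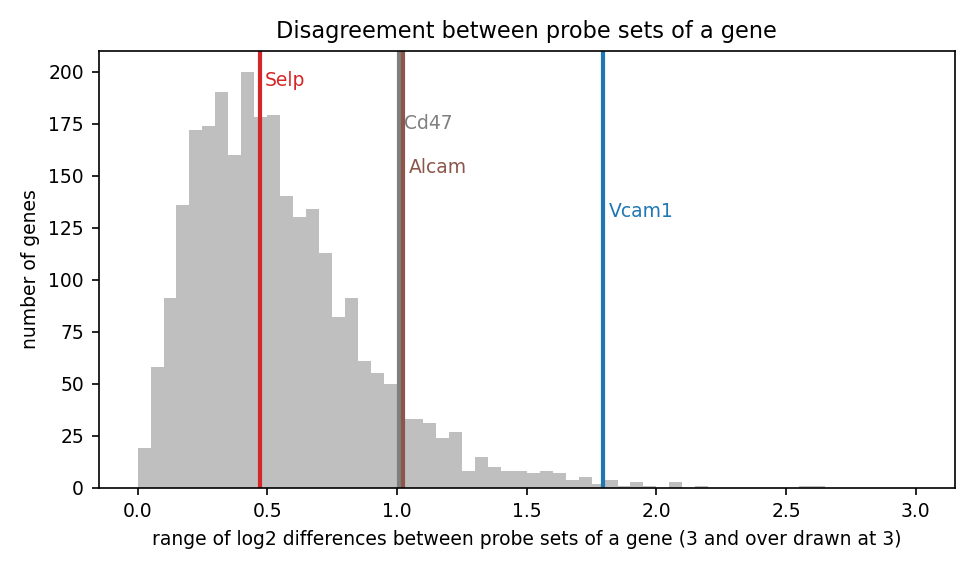
Number of genes (vertical axis) by the range of log2 differences between their analysed probe sets (horizontal axis), for the 2658 genes with 3 or more. Vertical lines mark Selp at 0.47, Cd47 at 1.01, Alcam at 1.02 and Vcam1 at 1.79, the last in the far right tail.

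The partners of these molecules were described through 7 lists of 124 genes, of which 103 passed the filter. By the brightest probe set, 6 of the 103 were lower by 2-fold (5.83%, beside 1.84% of all genes) and 2 were higher (1.94%, beside 0.971%). Vcan, 1 of the 6, was under the filter level in Snail1 KO, which left 5. With any analysed probe set counted, 6 were lower, beside 2.14% of all genes, and 6 higher. The share of all genes higher in any analysed probe set was not computed. By the probe set with the largest absolute difference, 6 of the 103 and 329 of all 12874 genes were higher by 2-fold. All list medians lay between -0.09 and 0.13, against -0.80 for the adhesion genes themselves. The members and lists were chosen with earlier results of these data known, so this contrast is a description only.

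Of 9 analysed leukocyte counter-receptors, which leukocytes and in part endothelium express, 1 was lower by 2-fold and none higher, with a median of -0.01. That gene was Itga4, the α4 integrin chain that binds VCAM-1, at 7.80 on the WT array and 5.97 on the Snail1 KO array, 3.56-fold lower, with a second analysed probe set at -1.97. The next largest difference was that of Itgb7, the chain that pairs with α4 to bind MAdCAM-1, which was dim at 4.38 and 4.22. Of 14 enzymes that build selectin ligands, 1 was lower by 2-fold, Gcnt1, a core 2 O-glycan branching enzyme, at 6.66 and 5.39. B3gnt3, which extends core 1 O-glycans, was at 4.41 and 3.83, the latter under the filter level, and the list median was -0.09. A further probe set of C1galt1, the core 1 synthase, was higher by 1.06, while its brightest differed by -0.33.

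Among 12 analysed partners of CD44 and hyaluronan, 1 was lower and 1 higher by 2-fold in the brightest probe set, with a median of -0.03. Vcan, the hyaluronan-binding proteoglycan versican, was at 5.08 and 3.83, the latter under the filter level, so that the 2.37-fold difference is uncertain, and another analysed probe set differed by -0.47. Stab2, a scavenger receptor for hyaluronan, was at 6.53 and 7.91, 2.60-fold higher. The ERM protein Ezr (ezrin), which ties CD44 to actin, was at 9.69 and 9.56. Further probe sets of the ERM protein Msn (moesin) and of the CD44 sheddase Adam10 were higher by up to 1.33 and 1.69 log2 units, while their brightest differed by -0.04 and 0.13. Of 10 partners of CD47, with a median of 0.13, Thbs2, a thrombospondin, was 2.47-fold lower (9.25 and 7.95), with further probe sets at -1.42 and -0.91. The thrombospondin receptor Cd36 was 4.46-fold higher (5.31 and 7.46), with another probe set at 1.47. Sirpa, the SIRPα receptor itself, was at 7.37 and 7.65.

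Other adhesion molecules of endothelium did not share the direction of the members as a list. Of 20 analysed, 1 was lower by 2-fold, none was higher by 2-fold and 12 lay above 0, with a median of 0.05. Cd34, a sialomucin that can carry L-selectin ligands, was at 10.09 and 8.48, 3.07-fold lower, and Mcam, an adhesion molecule of endothelium and pericytes, was at 8.10 and 7.16. The neural and endothelial adhesion molecule L1cam differed by nearly as much in the other direction, at 8.26 and 9.15. Of 23 cytokine receptors and NF-kB activators upstream of adhesion molecules, Tlr4, the lipopolysaccharide receptor, was 2.09-fold lower (7.35 and 6.29), with further probe sets at -1.43 and -0.73. The IL-1 receptor accessory protein gene Il1rap was at 6.34 and 5.43, with further probe sets at -0.24 and -0.22, and the TNF receptor Tnfrsf1b was 1.79-fold higher (4.99 and 5.83), with a further probe set at -0.17. The list median was 0.01. None of 16 Weibel-Palade body genes reached 2-fold in its brightest probe set, although a further probe set of the SNARE protein Vamp3 was higher by 1.30 (brightest -0.07). The largest differences of brightest probe sets were those of Rab3d, a small GTPase of secretory granules (7.20 and 7.75), and S100a10, the annexin A2 partner (12.23 and 11.77).

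**Figure D4:**
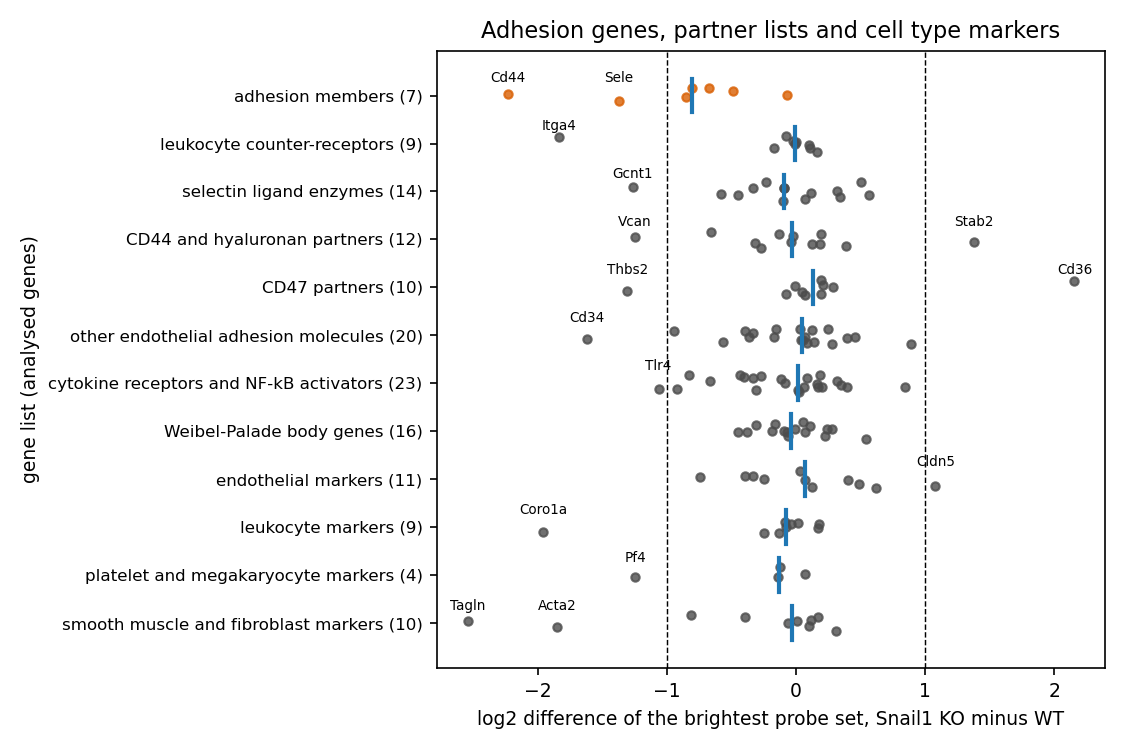
Log2 difference of the brightest probe set, Snail1 KO minus WT (horizontal axis), for each analysed gene of the adhesion set, the 7 partner lists and 4 lists of cell type markers (vertical axis, number of analysed genes in brackets). Blue bars are medians, dashed lines mark 2-fold and genes past it are named. The adhesion genes have a median of -0.80 and the other lists have medians near 0.

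Cell type markers were read beside these values, since Vcam1, Cd44 and Alcam are also made by mesenchymal cells, Itga4 and Cd44 by leukocytes and Selp by platelets. In bulk cells, fewer cells of a type and less RNA per cell cannot be told apart. Of 12 smooth muscle and fibroblast markers, 10 passed the filter, 5 lower and 5 higher by any size, with a median of -0.03. By 2-fold, 2 were lower and none higher. The 2 were the smooth muscle genes Tagln and Acta2, 5.83-fold and 3.60-fold lower. Cnn1 and Pdgfrb were lower by less, at 5.04 and 4.23 and at 4.45 and 4.05. Thy1 and Dcn, both bright, were at 11.43 and 11.37 and at 9.45 and 9.62, and the highest difference of the list was 0.31. The log2 of the summed signal of all 12, those under the filter level included, was 12.78 on the WT array and 12.14 on the Snail1 KO array. Of 13 leukocyte markers on the array, 9 passed the filter, and the summed level of all 13 was 9.91 and 9.82. Coro1a, which encodes the haematopoietic actin regulator coronin 1A, was 3.89-fold lower, and the other 8 analysed lay within 2-fold. The brightest of the list by the mean of both arrays, Cd14, Cd68 and Lyz2, were at 8.43 and 8.60, at 7.27 and 7.20 and at 6.43 and 6.34. The defining markers Ptprc (CD45) and Itgam (CD11b) were under the filter level in both groups, at 2.96 and 3.29 and at 2.90 and 2.69. Of 5 platelet markers, 4 passed the filter, and the summed level of all 5 was 7.64 and 7.26. Pf4, a platelet chemokine, was 2.37-fold lower (6.02 and 4.77), and the platelet integrin chain Itga2b was at 6.18 and 6.05. All 12 endothelial markers had a summed level of 14.83 and 14.91. Of the 11 analysed, 4 were lower and 7 higher by any size, with a median of 0.07. Their log2 differences ran from -0.74 to 1.08, and 1 of them, the claudin Cldn5, was higher by 2-fold. The part of cell composition in the adhesion gene values was not tested.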

How the data were processed

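Each of 2 arrays, 1 per group, was assigned from the sample titles. The deposited table holds log2 expression values for 45101 probe sets, which the authors obtained by RMA (affy), per the submitters' processing notes, with no version given in the sources used here. RMA forces both arrays towards 1 distribution and compresses folds of dim probe sets. Without scanner intensities the signal over background is unknown, and the number of arrays limits the precision.

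Gene symbols came from GEO's platform annotation, which gave 1 symbol to 34945 probe sets, and the RefSeq table (GRCm38.p6) matched 34741 of them by Entrez identifier and changed none. Differences are Snail1 KO minus WT. The brightest probe set, by its mean over both arrays, stood for a gene, after the filter at the 40th percentile. A difference of 1 log2 unit, 2-fold, was counted. The robust SD of differences over analysed genes was 0.32, and the SD between probe sets of 1 gene was 0.40; neither replaces replicates. Named genes are all members and, per list, those past 2-fold in the brightest probe set or, where fewer than 2 were, the 2 with the largest absolute difference. Msn, Adam10, C1galt1, Vamp3, L1cam, Tnfrsf1b, Cnn1, Pdgfrb, Thy1, Dcn, Cd14, Cd68 and Lyz2 were added after their values were seen. Ezr, Sirpa, Cdh5, Pecam1, Vwf, Ptprc, Itgam and Itga2b were added for their roles. The members and lists were chosen with earlier results of these data known. Counting was run on simulated data with known differences added to noise of the spread seen here. Those data held no disagreement between probe sets and no spread between cultures, so the run checks the counting step only. Python 3.11.15, pandas 2.3.3 and numpy 2.4.6 were used. Alternatives covered the fold, the filter, the choice of probe set and the normalization.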

Additional observations from a re-analysis of the deposited data

How the results depend on the processing

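No paired analysis was possible because each group holds 1 array, and no array could be left out. Of 95 values recomputed under alternatives, 71 stayed within 1.5 times the main count or, for a gene, within the robust SD of 0.32 of the main difference. Icam1, Sele and Madcam1 have 1 probe set each, so the choice of probe set could not move them, and the deposited values were already normalized. The 71 are therefore no measure of stability. A turn in direction was counted only for members past 2-fold in the main analysis, Cd44 and Sele, and neither turned. The number of adhesion genes at least 2-fold lower, 2 by the brightest probe set, was 5 at 1.5-fold and 1 at 3-fold (Cd44), 4 with the mean of all probe sets or with the probe set of largest difference (Cd44, Sele, Selp and Vcam1), 4 when any analysed probe set counted, which was chosen after seeing the data, and 1 with the filter at the 60th percentile, which removed Sele. The log2 difference of Vcam1 moved from -0.68 to -1.49 with the mean and to -2.47 with the largest probe set, that of Selp from -0.85 to -1.32 with the largest, that of Cd44 from -2.23 to -1.26 and that of Alcam from -0.80 to -0.35 with the mean, and that of Cd47 from -0.07 to 0.57 with the largest. The mean gives weight to dim probe sets that did not pass the filter. Over all 12874 genes, 237 were lower by 2-fold, against 783 at 1.5-fold and 90 at 3-fold. Lower genes numbered 182 of 12191 with the mean and 276 of 12874 with the largest probe set. With the filter at the 60th percentile they numbered 193 of 9890. Higher genes numbered 125, against 652 at 1.5-fold, 23 at 3-fold, 77 with the mean and 329 with the largest probe set. Partner genes 2-fold lower numbered 6 of 103, against 11 at 1.5-fold, 2 at 3-fold and 3 of 100 with the mean. Higher partner genes numbered 2, against 4 at 1.5-fold, 1 at 3-fold and 6 with the largest probe set. Normalizing again or centring the arrays moved no count past 1.5 times.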
